A study of Mus musculus with 12 samples.

Results

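Calcium store and influx genes of the oocyte were followed across the pubertal transition in RNA-Seq data from mouse oocytes. The 10 genes, of 24562 listed, were taken by symbol and encode proteins that release calcium from the endoplasmic reticulum (Itpr1, Itpr2 and Itpr3), sense its depletion (Stim1), admit calcium across the plasma membrane (Orai1, Cacna1h, Trpm7 and Trpv3), or pump it back into the store (Atp2a2) or out of the cell (Atp2b1). Oocytes had been taken from antral follicles in the ovaries of CD-1 mice, an outbred strain, at postnatal day (PND) 13, at PND 16 and at PND 40. PND 16 animals had been divided by body weight into PND 16 small and PND 16 large, so that there were 4 cohorts with 3 pools each, and a pool held 18 to 45 oocytes. No animal received gonadotropins, and all oocytes were collected with the phosphodiesterase inhibitor milrinone in the medium, which holds them in prophase I. The study treats PND 13 and PND 16 small as meiotically non-competent, and PND 16 large and PND 40 as competent. These are labels of cohorts, since the sequenced oocytes were snap frozen. The paper did not show its data on competence by weight at PND 16, citing the small number of animals. Body weight and competence cannot be told apart between the PND 16 cohorts, which share an age. PND 16 large and PND 40 share competence and differ in age.

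Calcium is stored in the endoplasmic reticulum of the oocyte and is released through inositol trisphosphate receptors when a sperm-borne phospholipase C generates inositol trisphosphate at fertilization. In the mouse egg the type 1 receptor, encoded by Itpr1, carries most of this release, and the resulting oscillations start egg activation. The store is refilled by the endoplasmic reticulum pump SERCA2 (Atp2a2), which depends on calcium entering from outside through plasma membrane channels. STIM proteins sense an emptied store and open ORAI channels, whereas the T-type channel Cav3.2 (Cacna1h), TRPM7 and TRPV3 are entry routes described in mouse oocytes and eggs, and the plasma membrane pump PMCA1 (Atp2b1) extrudes calcium.

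Of the 10 genes, Stim1 and Orai1 passed both criteria for differential expression in at least 1 comparison, Stim1 lower in both competent cohorts and Orai1 lower at PND 40 than at PND 13. The sequence upstream of each is shown because no other of the 10 genes passed both criteria. The windows are the 250 bases before the RefSeq start on GRCm38.p6, chr7:102267569-102267818 for Stim1 and chr5:123014824-123015073 for Orai1, printed 5′ to 3′. Capitals mark each GC box (GGGCGG or, on the other strand, CCGCCC) and each E-box (CANNTG, which reads the same on both strands).
Stim1: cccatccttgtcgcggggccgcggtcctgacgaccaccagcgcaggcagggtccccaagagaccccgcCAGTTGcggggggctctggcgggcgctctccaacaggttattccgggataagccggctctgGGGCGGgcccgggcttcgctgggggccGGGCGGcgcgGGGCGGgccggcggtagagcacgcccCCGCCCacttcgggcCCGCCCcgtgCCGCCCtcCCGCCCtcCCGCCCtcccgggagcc
Orai1: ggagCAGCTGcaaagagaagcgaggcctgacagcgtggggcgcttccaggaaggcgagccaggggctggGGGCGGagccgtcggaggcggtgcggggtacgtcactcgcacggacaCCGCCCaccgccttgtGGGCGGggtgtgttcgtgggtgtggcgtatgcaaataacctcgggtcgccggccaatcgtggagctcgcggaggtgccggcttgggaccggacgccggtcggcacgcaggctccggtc
The Stim1 window held 8 GC boxes and 1 E-box, and the Orai1 window held 3 GC boxes and 1 E-box, with no overlap between matches. At least 1 GC box was present in 32.7% and at least 1 E-box in 66.2% of 32851 RefSeq promoter windows of this length. The motif TAATTG, the site of the oocyte homeobox factor NOBOX, or its reverse complement CAATTA, was in neither window, and it was in 7.17% of all windows. G and C made up 78.4% of the Stim1 window and 70.8% of the Orai1 window. RefSeq windows were at hand for 7 of the 10 genes, and 6 of their 8 windows held a GC box. These matches describe the sequence and are not evidence of binding.

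Pools held between 17671193 and 27418358 counted reads, and all 10 genes passed the filter on low counts that left 13943 genes for testing. Expression is given as CPM, the count of a gene relative to the counted reads of its pool, after TMM scaling of the pools, with the SD over n = 3 pools unless another n is given. Oocyte markers were present in every pool, with the summed level of 12 markers between 15295 and 19727 CPM. The summed level of 13 granulosa or cumulus cell markers was 449 and 512 CPM in PND 13 replicates 1 and 3, 522 CPM in PND 16 small replicate 2 and 248 CPM in PND 16 small replicate 3, and it lay between 130 and 188 CPM in the other 8 pools. Of these 13 markers only Krt18 was at 0 in any pool. Nr5a2 and Cyp19a1 varied little over the 12 pools, from 87.9 to 146 CPM and from 12.7 to 24.3 CPM. Other markers varied far more, such as Inhbb (1.02 to 155 CPM), Inha (2.34 to 143 CPM) and Amh (0.39 to 33.5 CPM). Nr5a2 makes up much of the low sums, so the sum varied less between pools than these markers did. The paper describes removing cumulus cells mechanically, by pipetting, when oocytes were collected. The summed level of 8 theca or stroma markers lay between 6.53 CPM in PND 16 large replicate 3 and 34.5 CPM in PND 16 large replicate 2. That of 4 immune markers lay between 0.52 and 2.72 CPM, and Cd68 had at least 0.52 CPM in every pool. C1qa and 4 haemoglobin genes were at 0 in all pools, while the red blood marker Alas2 reached 0.43 CPM.

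Per unit of transcript length, the pump of the store stood far above the other genes. Levels were compared between genes as CPM per kb of merged exon length in GENCODE M21, averaged over 12 pools. Atp2a2 had 187 ± 30.9 CPM per kb and exceeded 99.1% of the genes tested with a known length. Itpr1 (23.2 ± 2.46 CPM per kb) and Cacna1h (22.8 ± 2.60) came next and were not separated, since Itpr1 was above Cacna1h in 7 of 12 pools. Orai1 (17.8 ± 3.31) and Atp2b1 (17.3 ± 2.00) were also not separated, with Orai1 the higher in 6 of 12 pools. Trpm7 (11.3 ± 1.38) and Itpr2 (8.22 ± 1.62) followed, and each was above the next gene in all 12 pools. Trpv3 (2.08 ± 0.59), Itpr3 (1.06 ± 0.20) and Stim1 (0.92 ± 0.56) were the lowest on this length-scaled level, and Itpr3 was above Stim1 in 8 of 12 pools. Stim1 was above Itpr3 in all 3 PND 13 pools and below it in all 3 PND 40 pools.

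**Figure D1:**
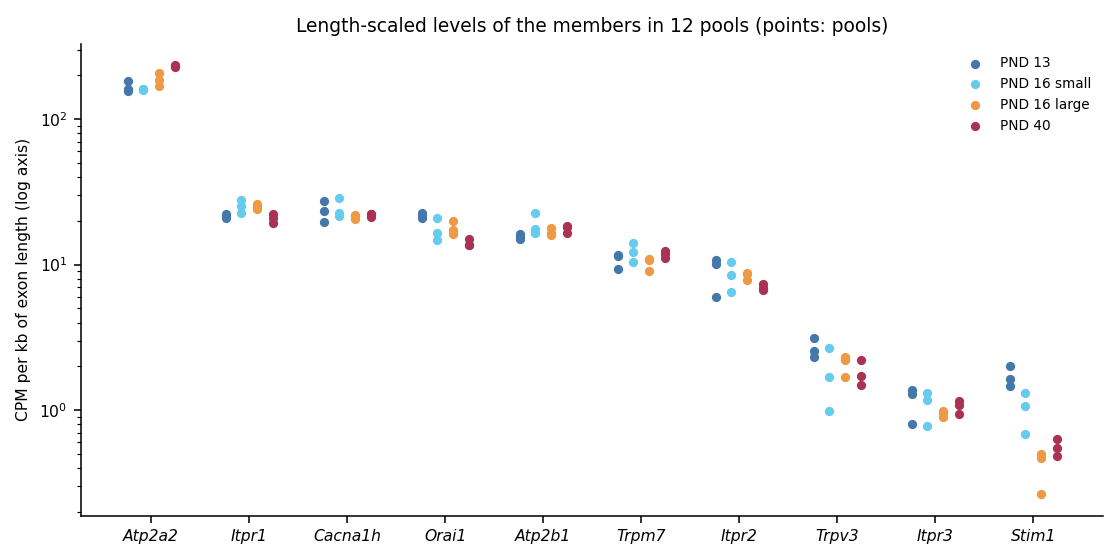
Length-scaled level of each of the 10 genes (CPM per kb of exon length, log axis), ordered from high to low, with 1 point per pool coloured by cohort. Atp2a2 sits near 187 CPM per kb, 5 genes lie between 11.3 and 23.2, and Stim1 shows the widest spread between cohorts.

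Stim1, the calcium sensor in the membrane of the endoplasmic reticulum (gene ID 20866, chr7:102267806-102437319, forward strand, GRCm38), had the greatest change of the 10 genes. At PND 13 it had 15.3, 20.9 and 16.9 CPM in replicates 1, 2 and 3. In PND 16 small it had 13.6, 7.11 and 11.1 CPM. In PND 16 large it had 2.74, 4.89 and 5.14 CPM, and at PND 40 it had 6.56, 5.69 and 5.03 CPM. All 6 pools of the non-competent cohorts were above all 6 pools of the competent cohorts, and the PND 16 large and PND 40 pools overlapped. The counts behind the lowest level were modest, with 67 reads in PND 16 large replicate 1, against 534 in PND 13 replicate 2.

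A gene was called where edgeR's quasi-likelihood test gave a Benjamini-Hochberg adjusted p of at most 0.05 over all genes tested, together with a change of at least 1.5-fold. Stim1 fell from 17.7 ± 2.88 CPM at PND 13 to 4.26 ± 1.32 CPM in PND 16 large, a log2 fold change of -2.05 ± 0.28 (SE, adjusted p = 0.000445). At PND 40 (5.76 ± 0.77 CPM) it was also below PND 13, with a log2 fold change of -1.62 ± 0.27 (adjusted p = 0.000677). Within the same age, Stim1 was lower in PND 16 large than in PND 16 small (10.6 ± 3.28 CPM), with a log2 fold change of -1.31 ± 0.27 (adjusted p = 0.00919). This call was lost when only these 2 cohorts were fitted (adjusted p = 0.053). Against PND 16 small, PND 40 was lower by a log2 fold change of -0.88 ± 0.27 (adjusted p = 0.0252). That last call was lost when PND 16 small replicate 1, PND 16 small replicate 3, PND 40 replicate 2 or PND 40 replicate 3 was left out, with adjusted p up to 0.0921. These comparisons share pools and are not independent of each other.

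Stim1 did not pass between PND 16 small and PND 13 (log2 fold change -0.74 ± 0.27, adjusted p = 0.150), although the pools did not overlap, nor between PND 40 and PND 16 large (0.44 ± 0.27, adjusted p = 0.384). Without PND 16 small replicate 1, the change between PND 16 small and PND 13 was -0.96 and passed (adjusted p = 0.0403). In competent vs. non-competent oocytes (6 vs. 6 pools) the level was 5.01 ± 1.27 vs. 14.1 ± 4.75 CPM, a log2 fold change of -1.50 ± 0.25 (adjusted p = 0.000548). The pool with the highest Stim1 level, PND 13 replicate 2, had the lowest granulosa marker sum of all pools (130 CPM). Without the 3 pools whose granulosa marker sum was above 400 CPM, the competent vs. non-competent change in Stim1 was -1.60 (adjusted p = 0.00175). The part of granulosa cells in the Stim1 change was not tested. In pooled cells, fewer cells holding a transcript and less of it per cell cannot be told apart. CPM is relative to the counted reads of a pool, and RNA per oocyte was not measured. A change in the total RNA of an oocyte can therefore not be told apart from these either.

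**Figure D2:**
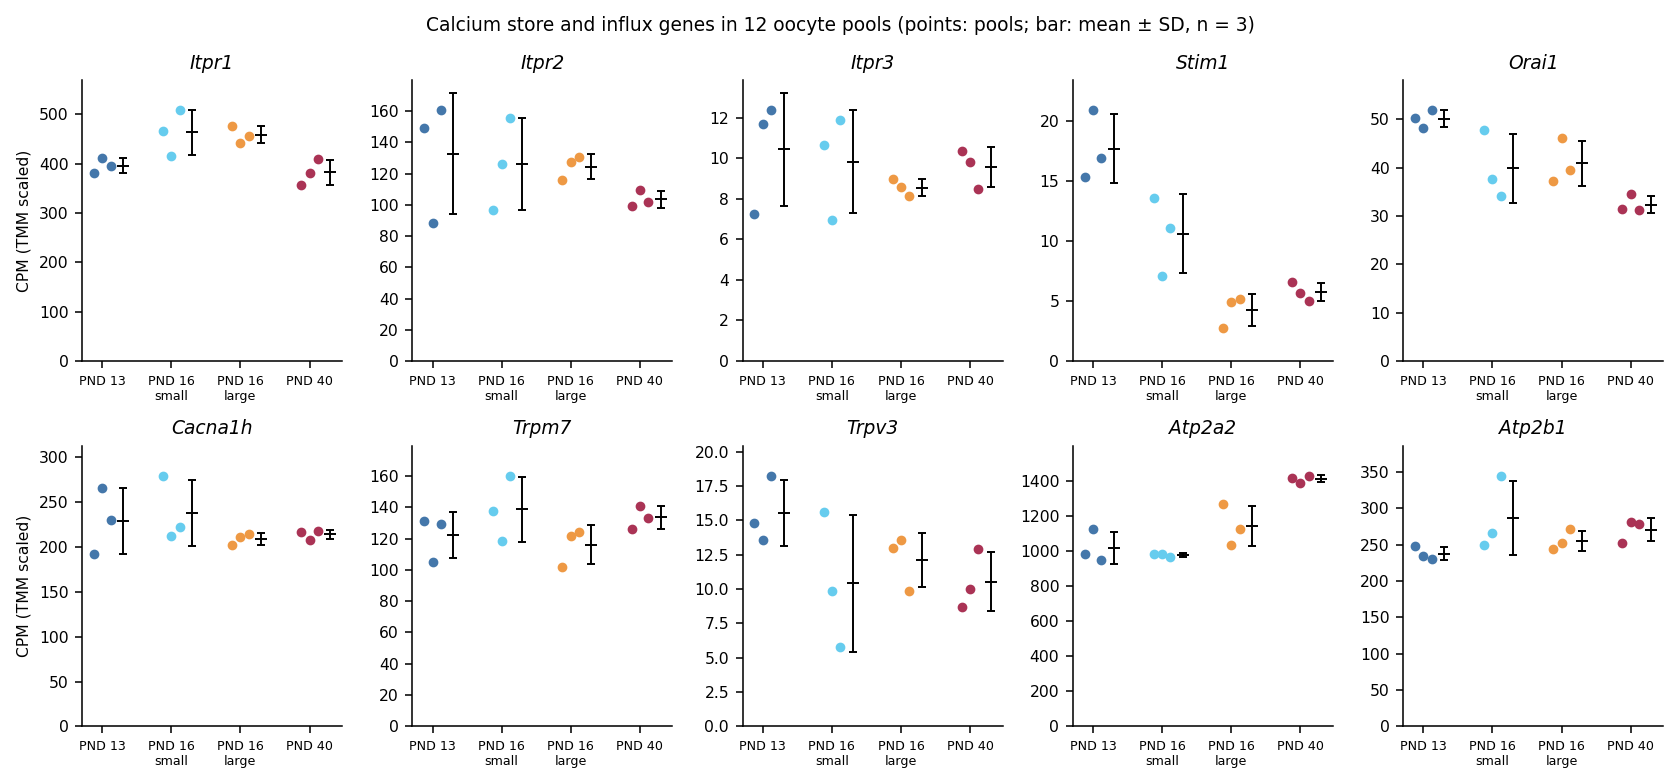
CPM of the 10 genes in each of the 12 pools, by cohort, on axes that start at 0 (points are pools in replicate order, bars are mean ± SD, n = 3). Stim1 falls from between 15.3 and 20.9 CPM at PND 13 to between 2.74 and 6.56 CPM in PND 16 large and PND 40, Atp2a2 is highest at PND 40, and Itpr2 and Cacna1h spread widest in the non-competent cohorts.

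Stim2, the other STIM gene, was far more abundant and did not follow Stim1. Its level was 71.1 to 95.05 CPM at PND 13 and 76.1 to 85.3 CPM at PND 40. In PND 16 small it was 95.7 to 115 CPM, and in PND 16 large 85.9 to 94.8 CPM. The share of Stim1 in the summed raw counts of Stim1 and Stim2, a quantity that does not depend on scaling between pools, was 13.9, 20.3 and 19.2% at PND 13 and 10.6, 6.91 and 9.48% in PND 16 small. It was 3.09, 4.91 and 5.14% in PND 16 large and 7.94, 6.26 and 5.65% at PND 40. The share was lower in competent oocytes (5.50% ± 1.60, n = 6) than in non-competent oocytes (13.4% ± 5.41, n = 6) by a 2-sided exact permutation test (p = 0.00433, adjusted p = 0.0216 over 5 shares). The ranges overlapped in 1 place, where PND 40 replicate 1 was above PND 16 small replicate 2. Leaving out 1 pool moved the adjusted p to between 0.0108 and 0.0649, above 0.05 without any of the 3 PND 16 large pools or PND 40 replicate 2 or 3. The test shuffles pools freely, although each side holds 2 cohorts. On the non-competent side the cohort means were 17.8% (PND 13) and 8.99% (PND 16 small). The 6 pools of a side are thus not independent samples of competence.

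Orai1, the plasma membrane channel that STIM proteins open (gene ID 109305, chr5:123015074-123030456, forward strand), had 50.3, 48.3 and 51.9 CPM at PND 13 and 47.9, 37.6 and 34.1 CPM in PND 16 small. It had 37.2, 46.1 and 39.5 CPM in PND 16 large and 31.5, 34.5 and 31.2 CPM at PND 40. All PND 13 pools were above all other pools, and PND 40 pools were the lowest apart from an overlap with PND 16 small replicate 3. From PND 13 (50.1 ± 1.81 CPM) to PND 40 (32.4 ± 1.83 CPM) the log2 fold change was -0.63 ± 0.13 (adjusted p = 0.00235). This call held without each of the 6 pools in turn, but not in the fit without the 3 pools with high granulosa markers, in which PND 13 had 1 pool (-0.57, adjusted p = 0.0676). Orai1 passed no other comparison, with log2 fold changes from -0.34 to 0.04.

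Orai3, a related channel of the family, moved the other way at a lower level. It had 1.96, 3.01 and 2.70 CPM at PND 13 and 3.01, 6.87 and 6.58 CPM in PND 16 small. It had 5.07, 5.25 and 7.64 CPM in PND 16 large, and 5.96, 6.05 and 5.81 CPM at PND 40. PND 13 did not overlap with PND 16 large or PND 40, and PND 16 small replicates 2 and 3 were within the range of PND 16 large. Orai3 rose by a log2 fold change of 1.22 ± 0.31 in PND 16 large vs. PND 13 (adjusted p = 0.0122, or 0.0627 without PND 16 large replicate 3) and by 1.21 at PND 40 vs. PND 13 (adjusted p = 0.00935). Orai1 made up 95.1% ± 0.98 of the counts of Orai1, Orai2 and Orai3 at PND 13, 87.4% ± 5.67 in PND 16 small, 86.3% ± 2.67 in PND 16 large and 83.7% ± 0.78 at PND 40. Over competent and non-competent pools the exact permutation test of this share gave p = 0.0368, which did not pass after adjustment (adjusted p = 0.0920).

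**Figure D3:**
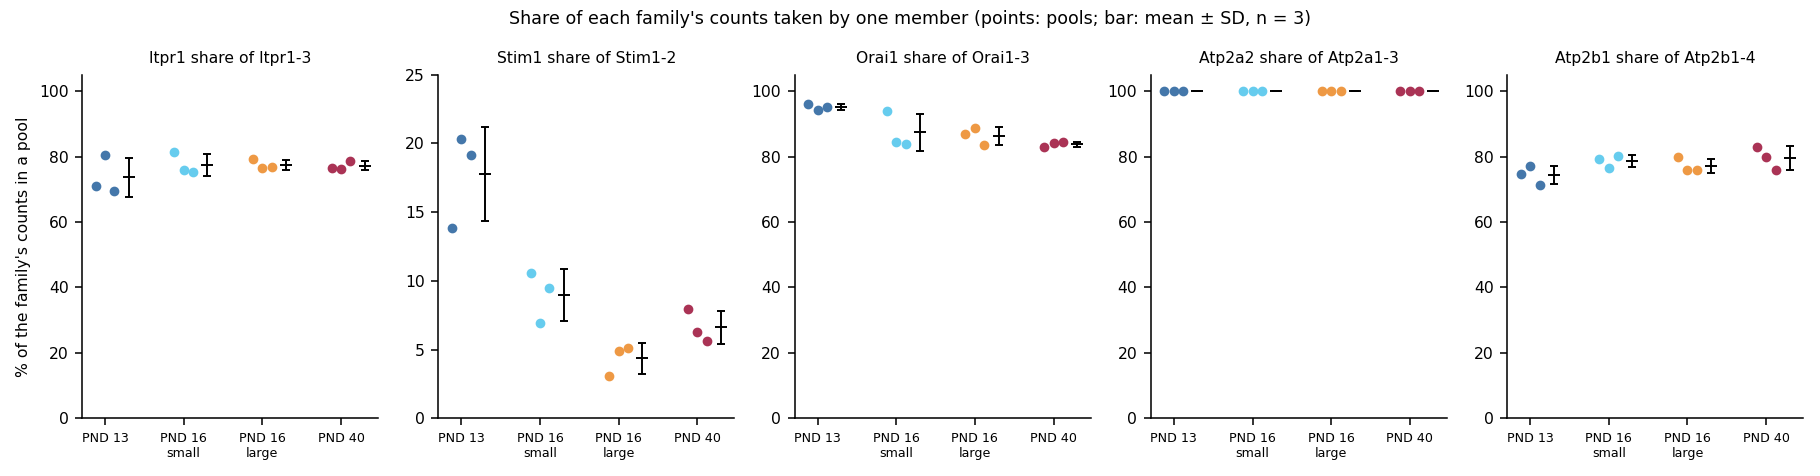
Percentage of a family's raw counts taken by Itpr1, Stim1, Orai1, Atp2a2 or Atp2b1 in each pool (points; bars are mean ± SD, n = 3), with the Stim1 panel on an axis to 25%. The Stim1 share falls from 17.8% at PND 13 to 4.38% in PND 16 large, whereas the Atp2a2 share stays above 99.9% in every pool.

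Itpr1, the main release receptor of the store (gene ID 16438, chr6:108213096-108551109, forward strand), had 382, 411 and 395 CPM at PND 13 and 466, 416 and 508 CPM in PND 16 small. It had 477, 442 and 456 CPM in PND 16 large and 356, 382 and 409 CPM at PND 40. Both PND 16 cohorts lay above both of the other ages, with no overlap. Only PND 40 vs. PND 16 small passed the adjusted p, with a log2 fold change of -0.28 ± 0.08 (adjusted p = 0.0175), which is under 1.5-fold and so was not called. It was lost without PND 16 small replicate 3 (adjusted p = 0.0569), PND 40 replicate 1 (0.0890) or PND 40 replicate 2 (0.0553). Competent and non-competent oocytes differed by -0.03, with a 95% interval from -0.20 to 0.14.

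Itpr2 and Itpr3, the minor receptors, passed no comparison. Itpr2 (gene ID 16439, chromosome 6) had 149, 88.5 and 160 CPM at PND 13 and 96.6, 126 and 156 CPM in PND 16 small, against 116 to 130 CPM in PND 16 large and 99.3 to 109 CPM at PND 40. The 2 PND 13 pools in which it was high are those with granulosa marker sums of 449 and 512 CPM, while PND 16 small replicate 3, at 156 CPM, had a sum of 248 CPM and PND 16 small replicate 2, at 126 CPM, a sum of 522 CPM. The part of granulosa cells in this spread was not tested. Its log2 fold change at PND 40 vs. PND 13 was -0.36 ± 0.21 (adjusted p = 0.210), and without PND 13 replicate 2 it was -0.61 and passed (adjusted p = 0.00676). Itpr3 (gene ID 16440, chromosome 17) ranged from 6.97 to 12.4 CPM over all pools, and its lowest and highest pools were both from non-competent cohorts. Itpr1 took 69.6 to 81.3% of the counts of the 3 receptors in non-competent pools and 76.2 to 79.3% in competent pools, which did not differ by the exact permutation test (adjusted p = 0.492). The range was the wider in the non-competent pools.

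Cacna1h, Trpm7 and Trpv3, the entry channels that do not depend on STIM, were not called in any comparison. Cacna1h (gene ID 58226, chromosome 17) had 193, 266 and 230 CPM at PND 13 and 280, 212 and 222 CPM in PND 16 small. It had 202 to 215 CPM in PND 16 large and 208 to 218 CPM at PND 40, within the range of the non-competent pools. In competent vs. non-competent oocytes it differed by -0.14 on the log2 scale, with a 95% interval from -0.30 to 0.02 (adjusted p = 0.197). Trpm7 (gene ID 58800, chromosome 2) averaged 122 ± 14.7, 139 ± 20.9, 116 ± 12.4 and 133 ± 7.56 CPM at PND 13, in PND 16 small, in PND 16 large and at PND 40, with log2 fold changes from -0.26 to 0.20.

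Trpv3 (gene ID 246788, chromosome 11) had 14.8, 13.6 and 18.3 CPM at PND 13, 15.6, 9.86 and 5.75 CPM in PND 16 small, 13.0, 13.6 and 9.87 CPM in PND 16 large and 8.71, 9.99 and 12.9 CPM at PND 40. All PND 13 pools were above all PND 40 pools, and PND 16 small spanned nearly the whole range. The log2 fold change at PND 40 vs. PND 13 was -0.56 ± 0.29 (adjusted p = 0.156), and it passed only when those 2 cohorts were fitted alone (-0.59, adjusted p = 0.0365). Without PND 16 small replicate 1, Trpv3 was also called in PND 16 small vs. PND 13 (-0.99, adjusted p = 0.0249).

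Atp2a2, the pump that refills the store (gene ID 11938, chr5:122453513-122502225, reverse strand), was highest at PND 40, by less than 1.5-fold. It had 981, 1121 and 949 CPM at PND 13 and 983, 982 and 963 CPM in PND 16 small. It had 1264, 1034 and 1127 CPM in PND 16 large and 1415, 1388 and 1427 CPM at PND 40. All PND 40 pools were above all other pools, and PND 16 large lay above PND 16 small but overlapped with PND 13. The log2 fold change was 0.47 ± 0.08 at PND 40 vs. PND 13 (adjusted p = 0.000772), 0.53 ± 0.08 vs. PND 16 small (adjusted p = 0.000407) and 0.30 ± 0.08 vs. PND 16 large (adjusted p = 0.0390). The last of these held without PND 16 large replicate 1 but was lost without any of the other 5 pools, with adjusted p up to 0.162. In competent vs. non-competent oocytes it was 0.36 ± 0.08 (adjusted p = 0.00511), and without the 3 pools with high granulosa markers it was 0.32 (adjusted p = 0.0603). Without those pools the change at PND 40 vs. PND 13 was 0.33 and did not pass either (adjusted p = 0.0596), and that vs. PND 16 small was 0.54 and passed (adjusted p = 0.00107). Atp2a2 supplied at least 99.9% of the counts of Atp2a1, Atp2a2 and Atp2a3 in every pool.

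Atp2b1, the pump that exports calcium across the plasma membrane (gene ID 67972, chr10:98914406-99026143, forward strand), averaged 238 ± 9.34, 287 ± 50.7, 255 ± 13.9 and 271 ± 15.6 CPM at PND 13, in PND 16 small, in PND 16 large and at PND 40. PND 16 small replicate 3 had the highest level, 345 CPM, against 250 and 266 CPM in the other pools of its cohort. Competent and non-competent oocytes differed by 0.00479 on the log2 scale, with a 95% interval from -0.17 to 0.18. Atp2b1 made up 71.4 to 83.0% of the counts of Atp2b1, Atp2b2, Atp2b3 and Atp2b4 over all pools, without a difference that passed (adjusted p = 0.492).

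Counted over the 10 genes, 2 were called at PND 40 vs. PND 13 (Stim1 and Orai1, both lower), where 18.9% of the genes tested were called and 12.6% were called lower. Stim1 alone was called in 4 other comparisons, each time lower. The share of genes tested that were called, and called lower, was 17.2 and 10.3% at PND 40 vs. PND 16 small, 13.3 and 9.80% in PND 16 large vs. PND 13, 6.19 and 4.76% in PND 16 large vs. PND 16 small, and 15.0 and 11.2% in competent vs. non-competent oocytes. None of the 10 genes was called by edgeR or DESeq2 in PND 16 small vs. PND 13 (0.373% of genes called, 0.194% lower) or at PND 40 vs. PND 16 large (3.66 and 1.32%). In these comparisons 4 and 3 of them had an unadjusted edgeR p under 0.05, beside 2684 and 3123 of the 13943 genes tested. On the adjusted p alone, 3 of the 10 passed at PND 40 vs. PND 13 (33.1% of all genes tested), 3 at PND 40 vs. PND 16 small (30.2%), 1 at PND 40 vs. PND 16 large (6.83%) and 2 in competent vs. non-competent oocytes (30.7%). These counts of 0 to 3 of 10 are near the share of all genes. The median log2 fold change of the 10 genes in competent vs. non-competent oocytes was -0.15, beside a median of -0.00458 over all genes tested. Itpr2, Itpr3, Cacna1h, Trpm7, Trpv3 and Atp2b1 passed no adjusted p, with 42 log2 fold changes between -0.57 and 0.27 and adjusted p from 0.156 to 0.975.

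**Figure D4:**
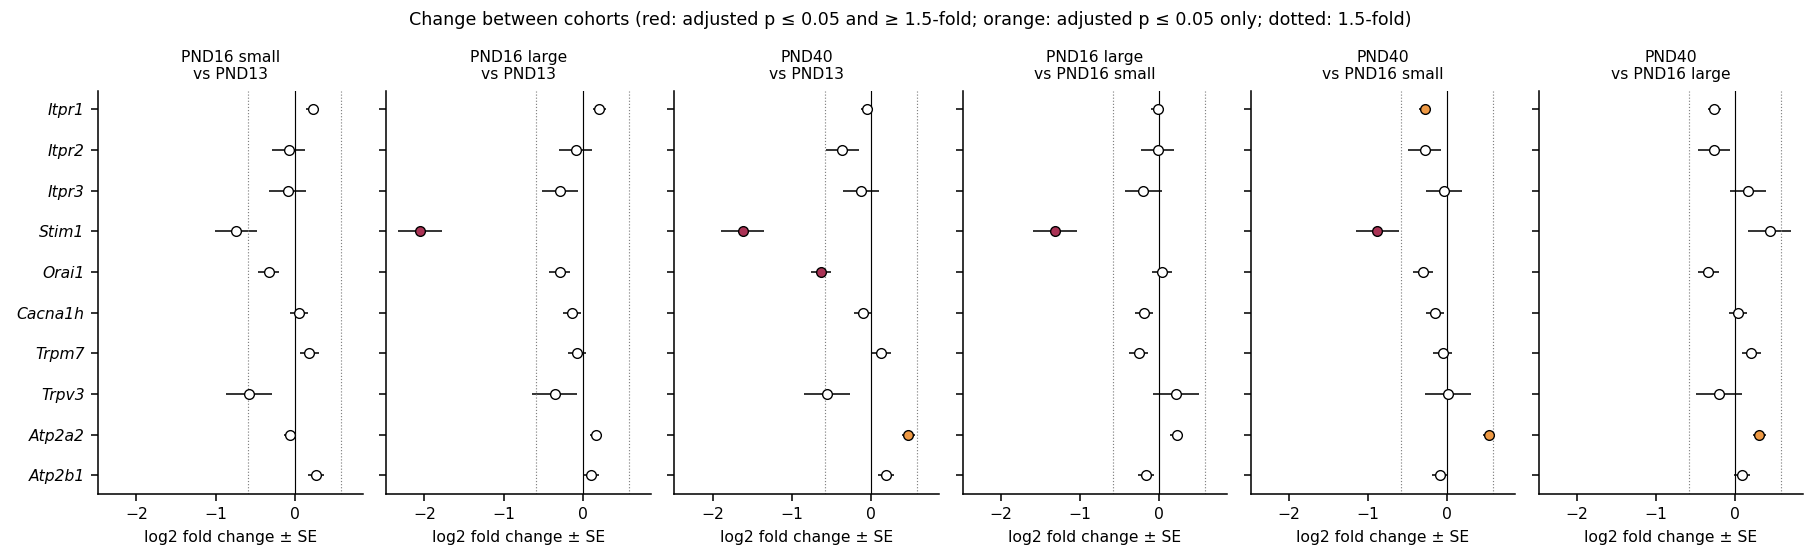
Log2 fold change ± SE of the 10 genes in the 6 pairwise comparisons of cohorts (red, called; orange, adjusted p of at most 0.05 but under 1.5-fold; white, neither; dotted lines, 1.5-fold). Stim1 is red in 4 panels and Orai1 in 1, while the orange points are Atp2a2 in all 3 comparisons of PND 40 and Itpr1 at PND 40 vs. PND 16 small.

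Other genes of calcium handling were taken from a list of 111 genes in 10 groups, of which 90 were tested. At PND 40 vs. PND 13, 7 were called higher and 8 lower, 16.7% of those tested against 18.9% of all genes. Competent vs. non-competent oocytes gave 5 higher and 7 lower (13.3%), PND 16 large vs. PND 13 gave 6 and 9 (16.7%), PND 40 vs. PND 16 small 3 and 5 (8.89%), and PND 16 large vs. PND 16 small 2 and 3 (5.56%). In PND 16 small vs. PND 13 only Vdac2 was called, and at PND 40 vs. PND 16 large Atp2c2 was higher and Trpc4 lower. Over the 7 comparisons, 28 genes were called at least once and 62 never. The share of all genes tested that were called at least once was not counted, so these counts are not read as high or low. The list median at PND 40 vs. PND 13 was -0.01, beside 0.00443 for all genes. None of the 11 tested genes of the mitochondrial uniporter group, the 10 of the phospholipase C group or the 8 store calcium buffers was called in that comparison. On the adjusted p alone, 4, 2 and 4 of them passed, where 33.1% of all genes tested did.

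Among the regulators of the inositol trisphosphate receptor, Erlin2, part of the complex that degrades activated receptors, was lower in the competent cohorts. It had 35.7, 49.4 and 41.4 CPM at PND 13, 52.1, 28.9 and 37.7 CPM in PND 16 small, 17.8, 13.0 and 19.1 CPM in PND 16 large and 12.6, 11.1 and 12.1 CPM at PND 40. Competent and non-competent pools did not overlap, and the log2 fold change was -1.52 ± 0.17 (adjusted p = 3.62e-05). Lrmp, which encodes a membrane protein known to bind the receptors, rose from 1.16 ± 1.37 to 6.16 ± 2.44 CPM between non-competent and competent oocytes (n = 6 each), with a log2 fold change of 2.40 ± 0.68 (adjusted p = 0.0173). Its pools did not overlap, but without the 3 pools with high granulosa markers it no longer passed (1.74, adjusted p = 0.142).

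Tmem110 (now Stimate), a regulator of STIM1 at contacts between the endoplasmic reticulum and the plasma membrane, had 17.5, 18.0 and 18.2 CPM at PND 13, 22.2, 6.78 and 8.07 CPM in PND 16 small, 5.07, 7.85 and 6.09 CPM in PND 16 large and 6.65, 6.17 and 8.93 CPM at PND 40. PND 16 small replicate 1 was thus above all PND 13 pools, and replicates 2 and 3 lay within the range of the PND 16 large and PND 40 pools. In PND 16 large vs. PND 13 its log2 fold change was -1.50 ± 0.37 (adjusted p = 0.0121). That call was lost without PND 16 large replicate 1 (adjusted p = 0.0599) and without the 3 pools with high granulosa markers (adjusted p = 0.0610). Tpcn1, a channel of endolysosomal calcium stores, was lower in competent than in non-competent oocytes (2.20 ± 0.63 vs. 4.97 ± 1.54 CPM, log2 fold change -1.17 ± 0.26, adjusted p = 0.00410), and this too was lost without those pools (-0.89, adjusted p = 0.0678).

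Among pumps and exchangers, Atp2c2, a Golgi calcium and manganese pump, had 173 ± 8.30 CPM at PND 40, above 101 ± 7.38 CPM in PND 16 large (log2 fold change 0.78 ± 0.15, adjusted p = 0.00976, or 0.0521 and 0.0548 without PND 16 large replicate 1 or 3) and 95.2 ± 26.6 CPM in PND 16 small (0.86 ± 0.15, adjusted p = 0.00120). Slc8a2, a sodium-calcium exchanger, was at 3.24 ± 1.87 CPM at PND 40 vs. 0.73 ± 0.25 CPM in PND 16 small (2.14 ± 0.71, adjusted p = 0.0360), a call lost without PND 16 small replicate 2 or 3 or PND 40 replicate 2 or 3, with adjusted p up to 0.167. Plch1, a phospholipase C, was lower at PND 40 (6.38 ± 0.96 CPM) than in PND 16 small (15.5 ± 5.23 CPM, -1.28 ± 0.29, adjusted p = 0.00502). Its PND 16 small pools had 12.4, 12.6 and 21.5 CPM, and its PND 13 pools 12.4, 6.37 and 9.25 CPM. Vdac2, a channel of the outer mitochondrial membrane, rose from 34.4 ± 4.63 CPM at PND 13 to 58.2 ± 9.48 CPM in PND 16 small (0.76 ± 0.13, adjusted p = 0.0309), which did not pass without PND 13 replicate 3 (adjusted p = 0.150) or PND 16 small replicate 3 (0.0879).

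TRP channels, a family of cation channels, went both ways. Trpm6, the closest relative of Trpm7, rose from 0.66 ± 0.19 CPM at PND 13 to 9.31 ± 2.81 CPM at PND 40 (log2 fold change 3.79 ± 1.01, adjusted p = 0.0162), although it had no count in PND 16 large replicate 2, and the call was lost without PND 13 replicate 1 or 3 (adjusted p = 0.0619 each). Trpv4 was higher in PND 16 large (4.29 ± 1.16 CPM) than at PND 13 (1.49 ± 0.55 CPM, 1.52 ± 0.38, adjusted p = 0.0114, or 0.0532 without PND 13 replicate 3). Trpc4 was lower at PND 40 (7.62 ± 1.08 CPM) than in PND 16 large (12.3 ± 2.85 CPM, -0.69 ± 0.19, adjusted p = 0.0432), which held without PND 16 large replicate 1 and was lost without any of the other 5 pools, with adjusted p up to 0.171. Trpm4 was called lower at PND 40 than at PND 13 (0.70 ± 0.18 vs. 2.07 ± 1.32 CPM), but its pools overlapped, the call held only without PND 13 replicate 2 among the fits that left out 1 pool (adjusted p up to 0.246), and without the 3 pools with high granulosa markers the change was -0.30 (adjusted p = 0.810). Without those pools, the calls of Trpm6 at PND 40 vs. PND 13 (adjusted p = 0.265) and of Trpv4 in PND 16 large vs. PND 13 (adjusted p = 0.177) were lost as well, as was that of Orai3 in the latter comparison (adjusted p = 0.177). That fit holds 1 pool at PND 13, which is assumed to vary like the other cohorts.

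**Figure D5:**
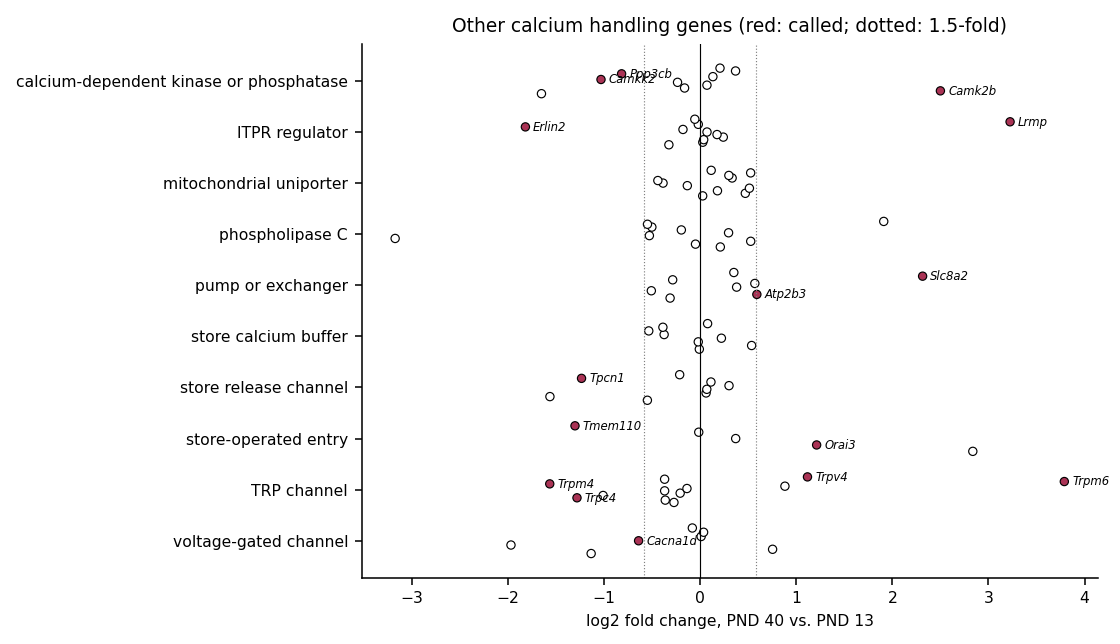
Log2 fold change at PND 40 vs. PND 13 of the 90 tested genes of the calcium handling list, by group (red, called and named; white, not called; dotted lines, 1.5-fold). Of the 15 called genes, 7 lie to the right and 8 to the left, and 3 of the 10 groups hold none.

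The gene whose levels were most alike was found for each of the 10 genes as the highest Pearson r of log2 CPM over 12 pools among 13942 other genes. These pools share cohorts, so r describes the pattern and was not tested. Stim1 was most like Kdm4b (r = 0.989), which averaged 40.0, 31.5, 21.7 and 23.4 CPM at PND 13, in PND 16 small, in PND 16 large and at PND 40, and 183 genes had r over 0.9 with Stim1. Atp2a2 was most like Sh3pxd2a (r = 0.971, 145 genes over 0.9), and Orai1 was most like Dstyk (r = 0.946, 23 genes). Itpr1 was most like Uhrf1bp1l (r = 0.945), Atp2b1 like Fam208b (0.945), Cacna1h like Stn1 (0.955) and Trpv3 like Mrm1 (0.943), each with 5 to 9 genes over 0.9. Itpr2 was most like Myof (0.925), Itpr3 like Haus8 (0.925), and Trpm7 like Polq (0.875), with no gene over 0.9 for Trpm7.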

How the data were processed

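The authors prepared directional libraries from oocyte pools after depletion of ribosomal RNA and sequenced them on a HiSeq. Their processing notes name mm10, FastQC, STAR, HTSeq, DESeq2, DESeq and HOMER. Versions, order and the strand setting of counting are not given in the sources used here. The authors deposited raw counts of reads per gene, without normalization, and log2 values, computed from the counts after dividing by a size factor per pool and adding 1. Cohorts and replicate numbers came from the sample labels, and all 12 pools were used.

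From the counts, edgeR 4.0.16 (R 4.3.3) filterByExpr with a minimum count of 10 kept 13943 genes, scaled by TMM. The 6 pairwise comparisons came from 1 robust quasi-likelihood model of 4 cohorts, and competent vs. non-competent from a model of 2 groups on the same genes. Called means 1.5-fold or more with an adjusted p no higher than 0.05, the study's criteria. SE is the absolute log2 fold change over the square root of F, and 95% intervals are normal intervals from it. Scripts were tested on simulated data. Family shares used 2-sided exact permutation tests (smallest p 0.00216). These tests and the model of 2 groups treat the pools of a side as alike, although each side holds 2 cohorts. Exon lengths and positions are from GENCODE M21 (GRCm38), and promoter windows from RefSeq. On the opposite strand, exons of Cacna1h overlap Tpsg1 (158 bases, no counts) and those of Itpr3 overlap Itpr3os (233 bases). Alternatives were DESeq2 1.42.0, limma 3.58.1 on the log2 values, other scalings and filters, fits of 2 cohorts alone, dropping the fold-change criterion, the replicate number as a block and leaving out each pool. Leaving out the pools with granulosa marker sums over 400 CPM was chosen after seeing the data.

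The 10 genes and the lists were chosen with earlier results of these data known. Genes named from the list are the 2 called with the largest change in each direction per comparison, at a mean of at least 1 CPM. Other called genes of the list are only counted or drawn. Same-numbered pools did not deviate together (mean r -0.05, 0 of 18 pairs over 0.1), so replicate numbers were not used as pairs. The paper gives 3 mice per condition as the source of 3 pools, which it calls independent. It does not say whether each pool came from a different mouse. P-values measure the spread between pools, which may not be that between mice. Reads carry no molecular identifiers.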

Additional observations from a re-analysis of the deposited data

Results flagged for a closer look

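In groups of 6 pools, 3 of 30 group and gene or share combinations held a pool far from the others by Dixon's test. Chance gives about 1.5 if the pools of a group are alike. Each group holds 2 cohorts, so that number is only a rough guide. Atp2a2 in PND 13 replicate 2 was at 1121 CPM, above 949 to 983 CPM in the other 5 non-competent pools. Atp2b1 in PND 16 small replicate 3 was at 345 CPM, above 230 to 266 CPM in the other 5 non-competent pools. The Atp2a2 share of the counts of its family in PND 16 large replicate 2 was 99.9085%, below 99.964 to 99.9971% in the other 5 competent pools.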

How the results depend on the processing

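Stim1 kept its direction in every alternative run. Leaving out each pool in turn, the 10 genes gave 2 to 3 calls at PND 40 vs. PND 13, 0 to 1 vs. PND 16 small, 1 in PND 16 large vs. PND 13 and vs. PND 16 small, 0 to 2 in PND 16 small vs. PND 13, 0 at PND 40 vs. PND 16 large and 1 in competent vs. non-competent oocytes. The calcium list gave, in this order, 7 to 20, 5 to 14, 9 to 17, 1 to 7, 0 to 4, 0 to 2 and 8 to 13 calls. List counts moved by over 1.5 times without PND 13 replicate 1 or 3 (7 each) or PND 40 replicate 1 (9) at PND 40 vs. PND 13, PND 16 small replicate 1 (14) or 3 (5) at PND 40 vs. PND 16 small, PND 13 replicate 3 or PND 16 large replicate 1 (9 each) in PND 16 large vs. PND 13, PND 16 large replicate 1 or 2 (1 each) or PND 16 small replicate 1 (3) or 3 (2) in PND 16 large vs. PND 16 small, PND 13 replicate 3 or PND 16 small replicate 3 (0 each) or 1 (4) in PND 16 small vs. PND 13, and PND 16 large replicate 1 (1) or 3 (0) or PND 40 replicate 3 (1) at PND 40 vs. PND 16 large. The Stim1 share differed by -9.18 to -6.50 percentage points, the Orai1 share by -7.65 to -5.20 (passing without PND 16 small replicate 2 or 3), and the Atp2a2 share by -0.0138 to 0.00473, the latter reversed without PND 16 large replicate 2.

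Without the fold-change criterion, the 10 genes gave 3 calls at PND 40 vs. PND 16 small, 1 at PND 40 vs. PND 16 large and 2 in competent vs. non-competent oocytes, and the list gave 32 (PND 40 vs. PND 13), 21 (vs. PND 16 small), 27 (PND 16 large vs. PND 13), 9 (vs. PND 16 small), 8 (PND 40 vs. PND 16 large) and 29 (competent). With only the compared cohorts in the model, PND 16 large vs. PND 16 small gave 0 of the 10 genes and 1 list gene, PND 16 small vs. PND 13 gave 0 list genes and PND 40 vs. PND 16 large gave 7. DESeq2 gave 8 list genes in PND 16 large vs. PND 16 small and 3 in PND 16 small vs. PND 13. Total-count scaling gave 1 at PND 40 vs. PND 16 large, and shifted the all-gene median change in PND 16 large vs. PND 13 to -0.13. The replicate block gave 0 list genes in PND 16 small vs. PND 13 and 1 at PND 40 vs. PND 16 large, and an Orai1 share adjusted p of 0.139. It changed no count of called genes among the 10, and gave Atp2a2 an adjusted p of 0.0644 at PND 40 vs. PND 16 large. Without the 3 pools with high granulosa markers, PND 40 vs. PND 13 gave 1 of the 10 genes and 4 list genes, PND 16 large vs. PND 13 gave 7, PND 16 small vs. PND 13 gave 0 and competent vs. non-competent gave 7, and the cause was not tested.

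Over all genes, calls in PND 16 small vs. PND 13 ran from 2 to 354 by model and from 4 to 817 without 1 pool, against 52. There were 817 without PND 16 small replicate 1, 4 without PND 13 replicate 3 and 5 without PND 16 small replicate 3. That comparison thus has little precision and depends on single pools. At PND 40 vs. PND 16 large the calls over all genes ran from 246 to 1081, against 510. In PND 16 large vs. PND 16 small, against 863, they were 333 and 466 without PND 16 large replicate 1 or 2 and 475 with these 2 cohorts alone. In PND 16 large vs. PND 13, against 1858, they were 1154 without PND 16 large replicate 1, 1189 without PND 13 replicate 3 and 1064 without the 3 pools with high granulosa markers, which gave 1506 at PND 40 vs. PND 13, against 2637.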
